A study of Mus musculus with 10 samples.

Results

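The genes described here build the membrane of the red blood cell and the protein skeleton beneath it: Slc4a1, Sptb, Ank1, Epb41, Epb42, Rhag, Rhd and Kel. They were taken by symbol as 8 of the 35705 genes for which transcript abundance could be summed. The rule that picks them uses their names and no measured value, but the list was drawn up with earlier results of these data known. Each library was made from total RNA of knee cartilage, taken from the medial side of an individual mouse, with 5 wild-type control mice and 5 mice null for miR-324, all untreated. The labels give no age, sex, strain, litter, batch or design of the null allele. The labelled tissue is articular cartilage and the labelled cell type chondrocyte. Abundance is in TPM, a share of a fixed library total corrected for transcript length. Read depth is therefore unknown, and 13386 to 14299 genes per library reached 1 TPM.

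A mature red cell has no nucleus, and its membrane proteins are made beforehand in erythroblasts of the bone marrow and in young reticulocytes. Band 3, the chloride and bicarbonate exchanger encoded by Slc4a1, spans the lipid bilayer and is tied through ankyrin (Ank1) and protein 4.2 (Epb42) to a mesh of spectrin, whose beta chain is Sptb. Protein 4.1 (Epb41) joins the ends of spectrin to short actin filaments, while Rhag and Rhd form the Rhesus complex and Kel carries the Kell blood group antigen. Inherited loss of several of these proteins causes spherocytosis or elliptocytosis in humans and mice.

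Genes of the labelled cell type were detected in these libraries, together with a large blood-forming component. Of 9 cartilage matrix and chondrocyte genes listed, 7 averaged 1 TPM or more. The cartilage matrix gene Col2a1 had between 33.9 and 142.8 TPM, the proteoglycan gene Acan between 60.2 and 287.4 TPM, and the chondrocyte factor Sox9 between 4.34 and 19.8 TPM. In the same libraries the beta globin Hbb-bs had between 32232 and 74809 TPM, Alas2, the erythroid enzyme that opens heme synthesis, between 537.9 and 1115 TPM, and the neutrophil gene S100a8 between 19437 and 41000 TPM. The kidney gene Umod, a marker of an unrelated tissue, did not exceed 0.204 TPM. Levels of red cell genes in such whole-tissue RNA follow both the number of erythroid cells and the RNA in each of them, and fewer cells of a type and less RNA per cell cannot be told apart.

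The sequences that bear on the genotype are the mature strands of the deleted microRNA and the places in the 8 genes that match them. A microRNA pairs through its seed, bases 2 to 8 from its 5′ end, with sites in the 3′ untranslated region of messenger RNAs and lowers their output. The strands below are from RefSeq on GRCm38.p6, plus strand, at chr11:70012060-70012082 for the 5p strand and chr11:70012095-70012114 for the 3p strand, with the seed in capitals.
mmu-miR-324-5p: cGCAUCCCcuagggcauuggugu
mmu-miR-324-3p: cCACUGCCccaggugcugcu

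In the longest annotated 3′ untranslated region of each gene, the match to the 5p seed was found once in Ank1 and once in Epb41, and the match to the 3p seed in none of the 8. Among the 12601 tested genes with such a region, 8.5% held a 5p match and 15.4% a 3p match. The region was 2243 bases long in Ank1 and 6872 in Epb41, against a median of 1149 over those genes. In the members without a match it ran from 117 bases (Kel) to 2737 bases (Sptb). The 2 matches are shown 5′ to 3′ with their surroundings in GRCm38, at chr8:23149983-23150011 on the plus strand for Ank1 and at chr4:131948059-131948087 on the minus strand for Epb41, with the 7 matching bases in capitals. Neither is followed by an A, the base that would extend the match at its 3′ end.
Ank1, bases 1740 to 1746 of the region: gcgcgggttggGGGATGCtgtggtccacg
Epb41, bases 5893 to 5899 of the region: cagctccaggaGGGATGCcgcgcctcaag

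The 2 matches differed in how much of the gene's RNA held them. In Ank1 the match lay in 3 transcripts, Ank1-202, Ank1-207 and Ank1-209, which together held 35.3% of the gene's TPM (19.8 TPM on average over the 10 libraries). In Epb41 the match lay only in the transcript Epb41-219, which held 0.143% of the gene's TPM (0.305 TPM). Slc4a1, Sptb, Epb42, Rhag, Rhd and Kel had no match to either strand in the longest region annotated for them. Within Ank1, the transcript with the match, Ank1-207, had 13.0, 15.5, 18.1, 15.4 and 15.9 TPM in wild-type mice 1 to 5 and 21.04, 19.3, 16.4, 21.2 and 21.4 TPM in null mice 1 to 5. Ank1-213, of similar abundance and without it, had 6.92, 15.8, 23.5, 17.1 and 20.4 TPM and then 24.5, 23.3, 18.9, 31.0 and 25.7 TPM. Both transcripts were higher on average in the null mice, and in both the genotypes overlapped. Ank1-207 made up 33.6% ± 3.13 of the gene in wild-type and 30.02% ± 1.2 in null mice (SD, n = 5 each), a difference that was not tested.

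Promoters are shown for the 3 genes in which letters of the kind bound by erythroid GATA factors such as GATA1 lie nearest before the start. The letters searched on both strands were 6 long, with A or T first, then GATA, then A or G, in windows of 250 bases before to 50 bases after the annotated start (RefSeq, GRCm38.p6). The sequences run 5′ to 3′ along the gene, with the matching letters in capitals. They lie at chr17:40810899-40811198 on the plus strand (Rhag), chr4:134864286-134864585 on the plus strand (Rhd) and chr6:41704276-41704575 on the minus strand (Kel).
Rhag: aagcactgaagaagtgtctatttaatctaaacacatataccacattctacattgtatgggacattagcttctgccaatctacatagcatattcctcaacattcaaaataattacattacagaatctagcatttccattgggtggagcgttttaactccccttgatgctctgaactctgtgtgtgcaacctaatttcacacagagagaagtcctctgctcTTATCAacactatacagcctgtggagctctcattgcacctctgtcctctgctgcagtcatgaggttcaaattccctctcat
Rhd: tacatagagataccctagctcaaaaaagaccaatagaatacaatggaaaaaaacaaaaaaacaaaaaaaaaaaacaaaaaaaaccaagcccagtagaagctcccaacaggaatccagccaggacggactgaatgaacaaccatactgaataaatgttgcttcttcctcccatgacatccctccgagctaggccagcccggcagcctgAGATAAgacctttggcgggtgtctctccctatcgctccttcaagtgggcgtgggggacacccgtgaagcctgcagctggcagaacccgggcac
Kel: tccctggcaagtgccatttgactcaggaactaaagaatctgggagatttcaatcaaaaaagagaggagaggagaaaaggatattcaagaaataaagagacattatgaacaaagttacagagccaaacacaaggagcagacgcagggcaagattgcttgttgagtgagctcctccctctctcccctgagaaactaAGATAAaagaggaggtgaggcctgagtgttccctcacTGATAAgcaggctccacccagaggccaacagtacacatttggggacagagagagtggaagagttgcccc

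The Rhag match starts 31 bases and the Rhd match 43 bases before the start of the gene, and Kel has 2 matches, 56 and 19 bases before it. Promoters were found for 6 of the 8 genes, and these 6 have 8 annotated promoters. A match was present in 7 of the 8 promoters, at least 1 for each of the 6 genes, against 29.8% of all 32851 promoters in the table. In Epb42 it lay 226 bases before the start, in Sptb 13 bases after it, and of the 3 Epb41 promoters the first and second held 1 each. Letters of the kind bound by the erythroid factor KLF1 (CCACACCC, CCACGCCC, CCCCACCC and CCCCGCCC, both strands) were in 3 of the 8 promoters, those of Sptb and Rhd and the first of Epb41, against 29.7% of all promoters. The promoters of Slc4a1 and Ank1 were not analysed here. These counts describe letters in a window and not factor binding.

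Red cell membrane genes were abundant for a tissue labelled as cartilage. Slc4a1 lay at the 98.5th percentile of mean abundance among the 13841 genes that averaged 1 TPM or more, and Ank1, the least abundant of the 8, at the 85.1st. Together they summed to 1158 ± 272 TPM across the wild-type group and 1680 ± 151 TPM in the null group (SD, n = 5 each). The order of the levels, per length, was Slc4a1, Epb41, Rhd, Epb42, Kel, Rhag, Sptb and Ank1. Each gene exceeded the next in this order in all 10 libraries, apart from Epb42 over Kel, which held in 9, and Rhag over Sptb, which held in 7, so that Rhag and Sptb did not differ beyond their spread. The coefficient of variation of TPM ran from 18.9% to 29.6% in wild-type mice and from 5.54% to 19.5% in null mice. With all mice included, it was larger in the wild-type group for each of the 8 genes. For Epb41 this order rests on wild-type mouse 1, the lowest of its group at 113.2 TPM.

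**Figure D1:**
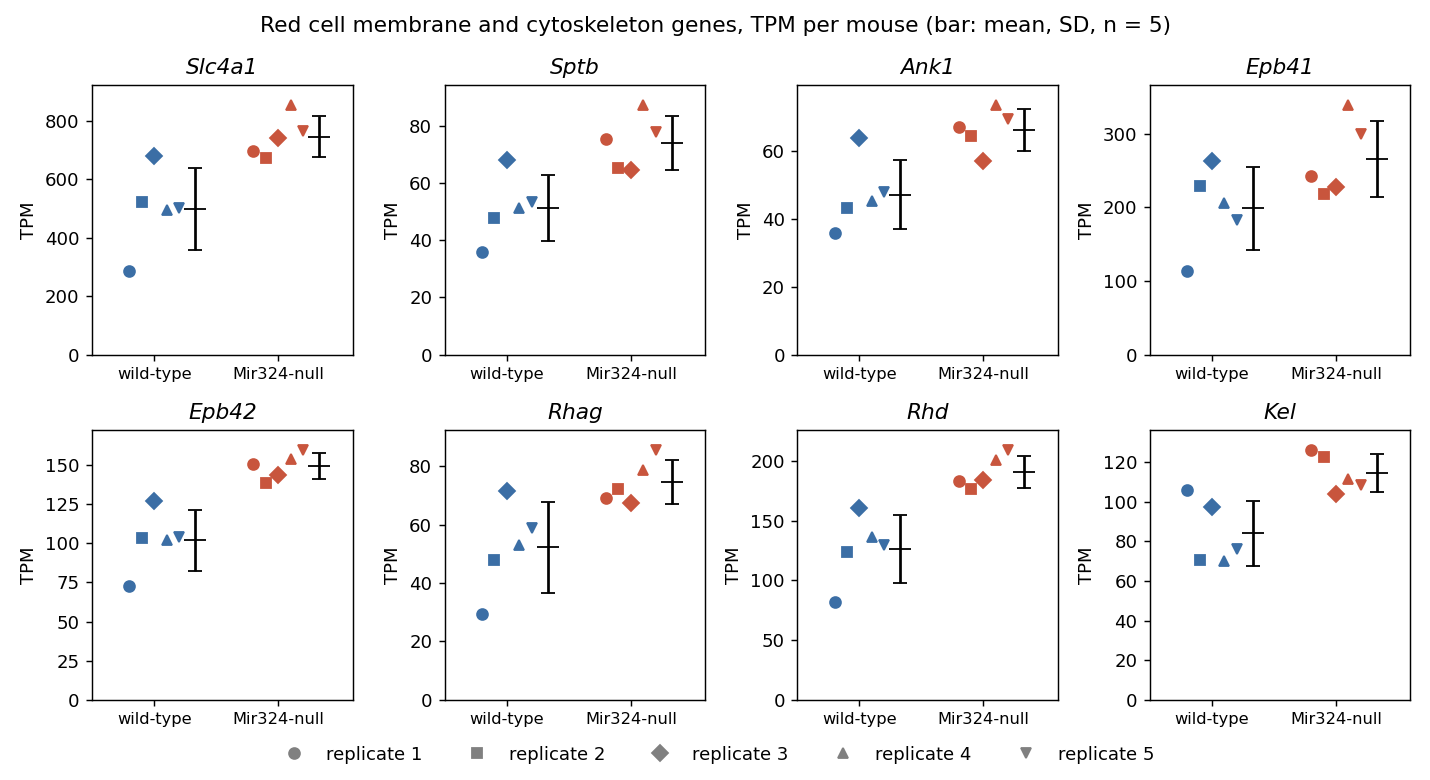
Abundance of the 8 red cell membrane genes in TPM (vertical axes, each from 0) in 5 wild-type (blue) and 5 Mir324-null mice (red), 1 point per mouse, with the mean and SD of each genotype to the right of its points. Marker shape gives the replicate number, which names a mouse and does not pair it. The genotypes do not overlap for Epb42 and Rhd, and wild-type mouse 1 (blue circle) is the lowest of the 10 for every gene but Kel, where it is the highest wild-type mouse.

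The comparison between genotypes asked whether these genes differ in tissue that lacks miR-324. All 8 were higher on average in the null mice, by 1.34 to 1.51 times in mean TPM, and for each gene all 5 null mice lay above the wild-type mean. No gene passed the test: in a limma fit over all 13841 genes, 0 had an adjusted p under 0.05 (0% of those tested), and the smallest adjusted p of the 8 was 0.277. At an unadjusted p under 0.05, 7 of the 8 were higher in null mice, against 4.28% of all genes tested. Of all genes at that threshold 63.1% were lower in null mice, a share that was 50.3%, 51.2% and 32.4% under 3 other scalings, while 7 or 8 of the 8 genes were higher under each of them. The genotypes did not overlap for 2 of the 8, Epb42 and Rhd, both higher in null mice, against 0.881% of all genes tested. The median difference of the 8 was 0.55 on the log2(TPM + 1) scale, against -0.05 over all genes tested, and 40% of all genes had an estimate above 0. All of the 8 but Kel varied together across mice, with Pearson's r of 0.857 to 0.991 between pairs. The counts above are therefore not counts of independent genes. Correlation between the genes of each other list counted below was not computed.

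Of the band 3 complex, Slc4a1 (ENSMUSG00000006574, chromosome 11, 102348824 to 102366203 in GRCm38) had 286.0, 522.6, 678.7, 493.4 and 500.5 TPM in wild-type mice 1 to 5. In null mice 1 to 5 it had 695.1, 672.7, 740.6, 853.4 and 764.4 TPM. Wild-type mouse 1 was far below the rest, and only wild-type mouse 3 reached into the null range. The difference was 0.63 (SE 0.185) on the log2(TPM + 1) scale, with a limma p of 0.00525 that was 0.308 after Benjamini-Hochberg adjustment over all genes.

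Ank1, the ankyrin that anchors band 3 to spectrin (ENSMUSG00000031543, chromosome 8, 22974844 to 23150497), had 35.7, 43.1, 63.6, 45.2 and 47.7 TPM across the wild-type group and 66.9, 64.2, 56.8, 73.4 and 69.1 TPM across the null group. Wild-type mouse 3 lay above null mouse 3 only, and every other wild-type mouse lay below all null mice. The difference was 0.50 (SE 0.137), with a limma p of 0.00342 and an adjusted p of 0.291. The gene overlaps the microRNA gene Mir486 on the same strand.

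Epb42, protein 4.2, which binds both band 3 and ankyrin (ENSMUSG00000023216, chromosome 2, 121017891 to 121037072), had 72.8, 103.1, 127.0, 102.1 and 104.0 TPM across the wild-type group and 150.8, 138.8, 143.4, 153.8 and 159.6 TPM in the null group. Every null mouse was above every wild-type mouse. The difference was 0.57 (SE 0.126), the smallest of the 8 in p (limma, 0.000769) and 31st of all genes tested, with an adjusted p of 0.277.

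Of the spectrin skeleton, Sptb (ENSMUSG00000021061, chromosome 12, 76580488 to 76710547) had 35.9, 47.7, 67.9, 51.4 and 53.3 TPM across the wild-type group and 75.4, 65.3, 64.7, 87.4 and 77.9 TPM across the null group. Wild-type mouse 3 lay above null mice 2 and 3, and the other wild-type mice lay below all null mice. The difference was 0.54 (SE 0.152), with a limma p of 0.00392 and an adjusted p of 0.298. Sptb overlaps Plekhg3 on the opposite strand, which had 9.16 to 18.03 TPM, and the strandedness of the libraries is not given in the sources used here.

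Epb41, protein 4.1 (ENSMUSG00000028906, chromosome 4, 131923413 to 132075321), had 113.2, 228.7, 262.4, 206.6 and 183.1 TPM across the wild-type group and 243.1, 218.2, 228.1, 339.3 and 299.2 TPM in the null group. It was the gene with the most overlap: only null mice 4 and 5 exceeded every wild-type mouse. The difference of 0.45 (SE 0.207) had a 95% interval from -0.0042 to 0.90, a limma p of 0.0518 and an adjusted p of 0.437. Without wild-type mouse 1 the difference was 0.26.

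Of the Rhesus complex, Rhag, its ammonia channel and scaffold (ENSMUSG00000023926, chromosome 17, 40811126 to 40840754), had 29.5, 47.9, 71.7, 53.0 and 58.9 TPM across the wild-type group and 69.3, 72.1, 67.5, 78.8 and 85.6 TPM in the null group. Wild-type mouse 3 lay within the null range and the other wild-type mice below it. The difference was 0.56 (SE 0.192), with a limma p of 0.0134 and an adjusted p of 0.338, and it was 0.37 without wild-type mouse 1.

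Rhd, the mouse Rhesus antigen protein (ENSMUSG00000028825, chromosome 4, 134864536 to 134896172), had 81.8, 123.4, 160.5, 136.2 and 129.3 TPM across the wild-type group and 183.0, 176.9, 184.5, 200.9 and 209.2 TPM in the null group. The genotypes did not overlap. The difference was 0.62 (SE 0.150), with a limma p of 0.00144 and an adjusted p of 0.277. The ratio of Rhd to Rhag was 2.47 ± 0.245 in wild-type and 2.56 ± 0.124 in null mice (SD, n = 5, exact permutation p = 0.421, adjusted 0.517 over 16 ratios of gene pairs).

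Kel, a membrane endopeptidase (ENSMUSG00000029866, chromosome 6, 41686330 to 41704339), had 105.9, 70.8, 97.5, 70.1 and 76.0 TPM across the wild-type group and 126.2, 122.9, 104.2, 111.5 and 108.3 TPM in the null group. Its pattern within the wild-type group differed from the other 7 genes, with mouse 1 the highest instead of the lowest. That mouse lay above null mouse 3 only. The difference was 0.46 (SE 0.126), with a limma p of 0.00355 and an adjusted p of 0.291.

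Libraries that stood apart and markers of other cells moved with these differences. Wild-type mouse 1, the lowest library for 7 of the 8 genes, also had the highest Acan (287.4 TPM, against 72.8 to 145.5 TPM in wild-type mice 2 to 5 and 60.2 to 81.6 TPM for the null group) and the lowest summed adult globins. Without it the median difference of the 8 genes was 0.44, 7 were higher at an unadjusted p under 0.05 and the smallest adjusted p over all genes was 0.450. Of 7 cartilage matrix and chondrocyte genes that passed the filter of 1 TPM, 6 had a lower estimate in null mice and 4 an unadjusted p under 0.05 (7.3% of all genes tested were lower at that threshold), with sums of 1865 to 6053 TPM across the wild-type group and 1608 to 2854 TPM in the null group. Of 10 osteoblast and osteocyte genes, 9 were lower at that threshold (sums of 8480 to 17051 and 4333 to 8517 TPM), as were 7 of 7 osteoclast genes that passed (1438 to 3251 and 944 to 1940 TPM). All 8 B lineage genes had a lower estimate and 4 of them an unadjusted p under 0.05. These counts moved when 1 mouse was left out: for the cartilage genes to 1 without wild-type mouse 4 or null mouse 1 and to 2 without null mouse 5, and for the osteoclast genes to 4 without wild-type mouse 1 or 2 or null mouse 4 or 5. For the osteoblast and osteocyte genes the count was 6 without wild-type mouse 1, 2 or 4 or null mouse 1, 4 or 5. It was 7 with median-of-ratios scaling, quantile normalization or globins left out of the library total. For the B lineage the count was 2 without wild-type mouse 1 or 3 or null mouse 1 or 4, and 7 without null mouse 3, and it was 1 with globins left out of the library total. The part of the tissue's makeup in the red cell gene differences was not tested.

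Other genes listed as red cell membrane components gave estimates in the same direction for the most part. Whether the red cell of the mouse uses each of them was not examined, and other cells of the tissue can express them. Of 24 such genes, 20 had an estimate above 0, where 40% of all genes tested did. At an unadjusted p under 0.05, 16 were higher in null mice and 0 lower, against 4.28% and 7.3% of all genes tested. The count of 16 was 12 without null mouse 1 or 4 and 19 with globins left out of the library total. Without wild-type mouse 3, 2 were lower. None had an adjusted p under 0.05. The genotypes did not overlap for 2, the water channel gene Aqp1 and the calcium-activated potassium channel gene Kcnn4, both higher in null mice, against 0.881% of all genes tested. The median difference was 0.44. Ermap, the erythroid protein of the Scianna blood group, differed by 0.48 (65.4 ± 16.7 and 89.7 ± 10.2 TPM, SD, n = 5).

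The largest differences in this group belonged to Slc14a1, the urea transporter of the Kidd blood group, at 0.65 and Art4, the carrier of the Dombrock antigen, at 0.59. The smallest differences lay below 0. Slc2a1, the glucose transporter, differed by -0.41, and Tpm1, a tropomyosin, by -0.32. Piezo1, a mechanically gated channel, differed by -0.15. Wild-type mouse 1 had 36.5 TPM of Slc2a1, against 12.7 to 18.8 TPM in the other 9 mice, and 50.8 TPM of Piezo1, against 17.3 to 29.1 TPM in the others.

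Relatives of the 8 genes that serve other cells were compared beside them. Of 16 such genes, 14 passed the filter, 11 of these had an estimate below 0 and 3 above it (5 above with quantile normalization), where 60% of all genes tested were below 0. At an unadjusted p under 0.05, 0 were higher and 3 lower in null mice (5 without wild-type mouse 3), where 7.3% of all genes tested were lower, and the median difference was -0.19. Phex, a kin of Kel expressed by osteocytes, had 42.6, 19.7, 21.9, 27.5 and 22.6 TPM across the wild-type group and 11.7, 15.6, 17.96, 13.5 and 10.1 TPM in the null group, so that the genotypes did not overlap (lower in 1.06% of all genes tested). Its difference was -0.89 (SE 0.208), with a limma p of 0.00115 and an adjusted p of 0.277. Epb41l2, the general relative of protein 4.1, differed by -0.42 and Slc4a2, the anion exchanger of many tissues, by -0.39. Sptan1, the spectrin alpha chain of nucleated cells, differed by -0.22 and Tgm2, the transglutaminase related to protein 4.2, by -0.13. Ank2 differed by 0.09, and Rhcg, at 0.362 to 1.57 TPM, did not pass the filter.

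**Figure D2:**
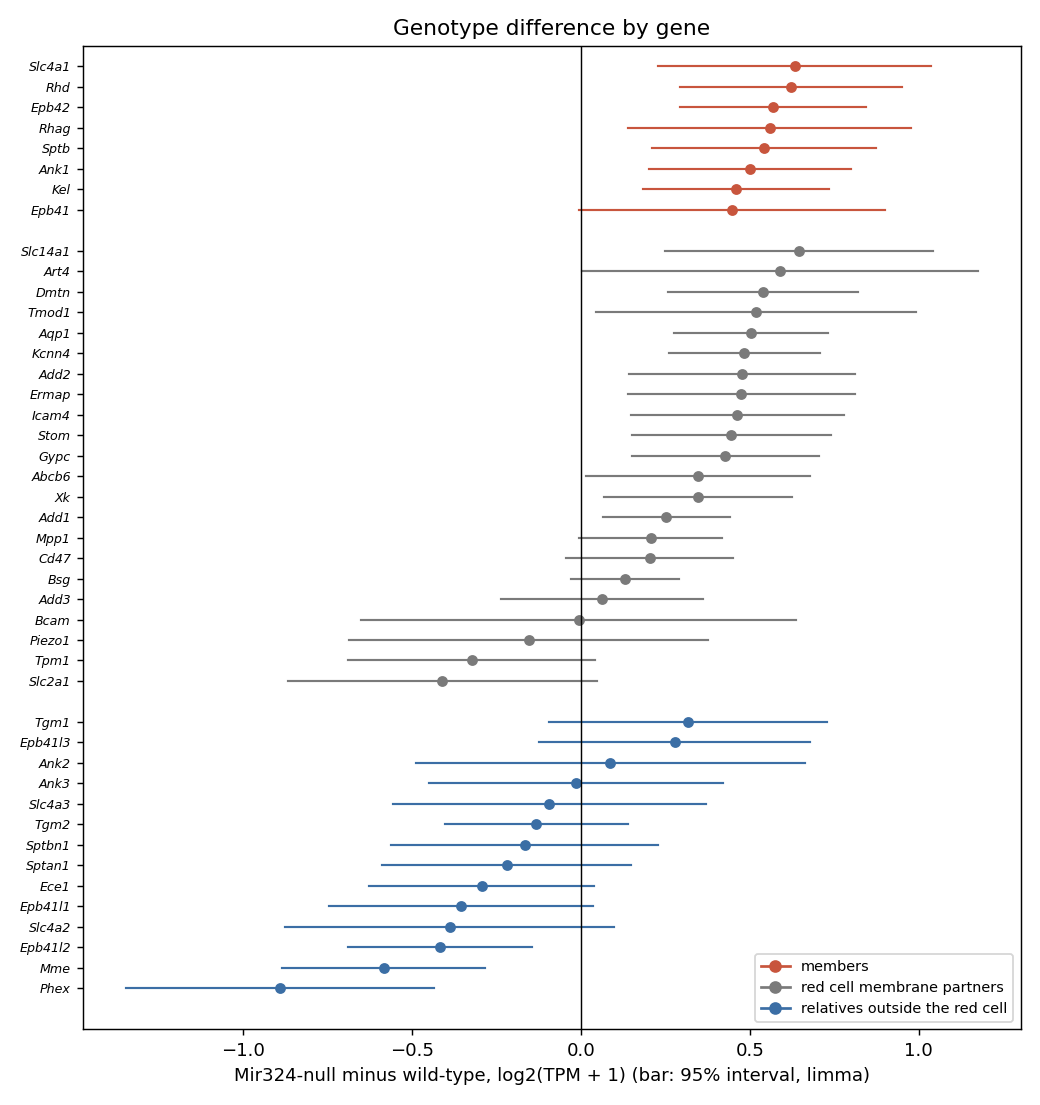
Difference between genotypes on the log2(TPM + 1) scale (horizontal axis, Mir324-null minus wild-type), with 95% intervals from limma that are not adjusted for the number of genes. Red marks the 8 red cell membrane genes and grey 22 of the 24 other genes listed as components of that membrane. Blue marks the 14 of 16 relatives used by other cells that passed the filter. All 8 red estimates lie between 0.45 and 0.63, while 11 of the 14 blue ones lie below 0.

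Ratios between a red cell gene and its relative within a library do not depend on how libraries are scaled to one another. Kel had 3.29 ± 0.813 times the TPM of Phex in wild-type and 8.71 ± 2.13 times in null mice (SD, n = 5, exact permutation p = 0.00794, the smallest this design allows, adjusted 0.0635 over the 16 ratios). Rhag had 54.6 ± 15.9 times the TPM of Rhcg in wild-type and 158.5 ± 46.2 times in null mice (SD, n = 5, exact permutation p = 0.00794, adjusted 0.0635). Rhcg did not pass the filter of 1 TPM, so this ratio divides by low values. Epb41 had 4.88 ± 1.39 and 8.99 ± 2.65 times the TPM of Epb41l2 (SD, n = 5, exact permutation p = 0.0238, adjusted 0.0952). For Epb42 to Tgm2 the ratios were 2.65 ± 0.847 and 4.20 ± 0.729, with the same p and adjusted p. Not every pair moved this far: Ank1 had 15.5 ± 8.38 times the TPM of Ank2 in wild-type and 19.4 ± 7.94 times in null mice (SD, n = 5, exact permutation p = 0.452, adjusted 0.517). None of the 16 ratios passed adjustment. Between skeleton genes, Sptb to Ank1 was 1.09 ± 0.0514 in wild-type and 1.12 ± 0.0629 in null mice (SD, n = 5, exact permutation p = 0.357, adjusted 0.517).

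The other erythroid genes had estimates in the same direction. All 8 heme synthesis enzymes were higher in null mice at an unadjusted p under 0.05 (median difference 0.46), as were 7 of 8 erythroid regulators such as Gata1 and Tal1 (0.51) and 6 of 7 measured late erythroblast genes (0.51). Of all genes tested, 4.28% were higher at that threshold. The late erythroblast count was 4 without null mouse 4. The 4 adult globins all had estimates above 0, with a median of 0.41 and 1, Hba-a1, at an unadjusted p under 0.05 (0 to 3 when single mice were left out, the 3 without wild-type mouse 3); with quantile normalization 3 of the 4 estimates were above 0 and the median was 0.12. No gene of these lists had an adjusted p under 0.05. Of the lineages next to the erythroid one in marrow, 7 of 8 megakaryocyte genes were higher at the unadjusted threshold (0.43). This count was 2 without null mouse 1 or 5, 3 without wild-type mouse 1 and 4 without null mouse 2 or 4. None of 8 neutrophil genes was higher or lower at that threshold, and their median of -0.10 ranged from -0.28 to 0.04 over the settings tried.

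Against the summed adult globins, no difference between genotypes passed the test for any of the 8 genes. The globins took up 11.2%, 16.4%, 19.7%, 18.7% and 11.7% of the TPM in wild-type mice 1 to 5 and 17.5%, 15.7%, 20.5%, 23.3% and 26.1% in null mice. The log2 ratio of each gene to them was higher in null mice by 0.03 (Epb41) to 0.21 (Slc4a1), and the exact permutation p lay between 0.175 (Rhd) and 0.881 (Kel), with an adjusted p of 0.737 to 0.881 over the 8 ratios. Single mice moved these differences: without wild-type mouse 5 they reached 0.32 for Slc4a1, 0.30 for Rhag and 0.31 for Rhd, the last with an exact permutation p of 0.0317 and an adjusted p of 0.190. Without wild-type mouse 4 that of Ank1 was 0.0023. The spread was wide: for Rhag the ratio had an SD of 0.38 in wild-type and 0.21 in null mice on the log2 scale. These data therefore do not resolve a difference in the share of membrane transcripts per globin transcript.

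Across the 10 mice, 7 of the 8 genes went with the globins. Pearson's r of log2(TPM + 1) lay between 0.735 (Ank1) and 0.877 (Epb41), with Spearman's rho between 0.673 and 0.842 (permutation test, adjusted p of 0.00264 to 0.0176 for r over 8 relations). Kel was the exception, at r = 0.237 and rho = 0.127 (permutation p = 0.510 and 0.734). With values centred within genotype, Slc4a1, Epb41, Epb42 and Rhd passed adjustment and the other 4 did not. Without wild-type mice 1 and 5, the 2 farthest from the median globin level, none of the 8 passed, so that passing the test rests on those libraries. In the 8 mice left, which span a narrower range of globins, r of the 7 genes was 0.492 (Ank1) to 0.773 (Epb41), and r of Kel was 0.178.

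**Figure D3:**
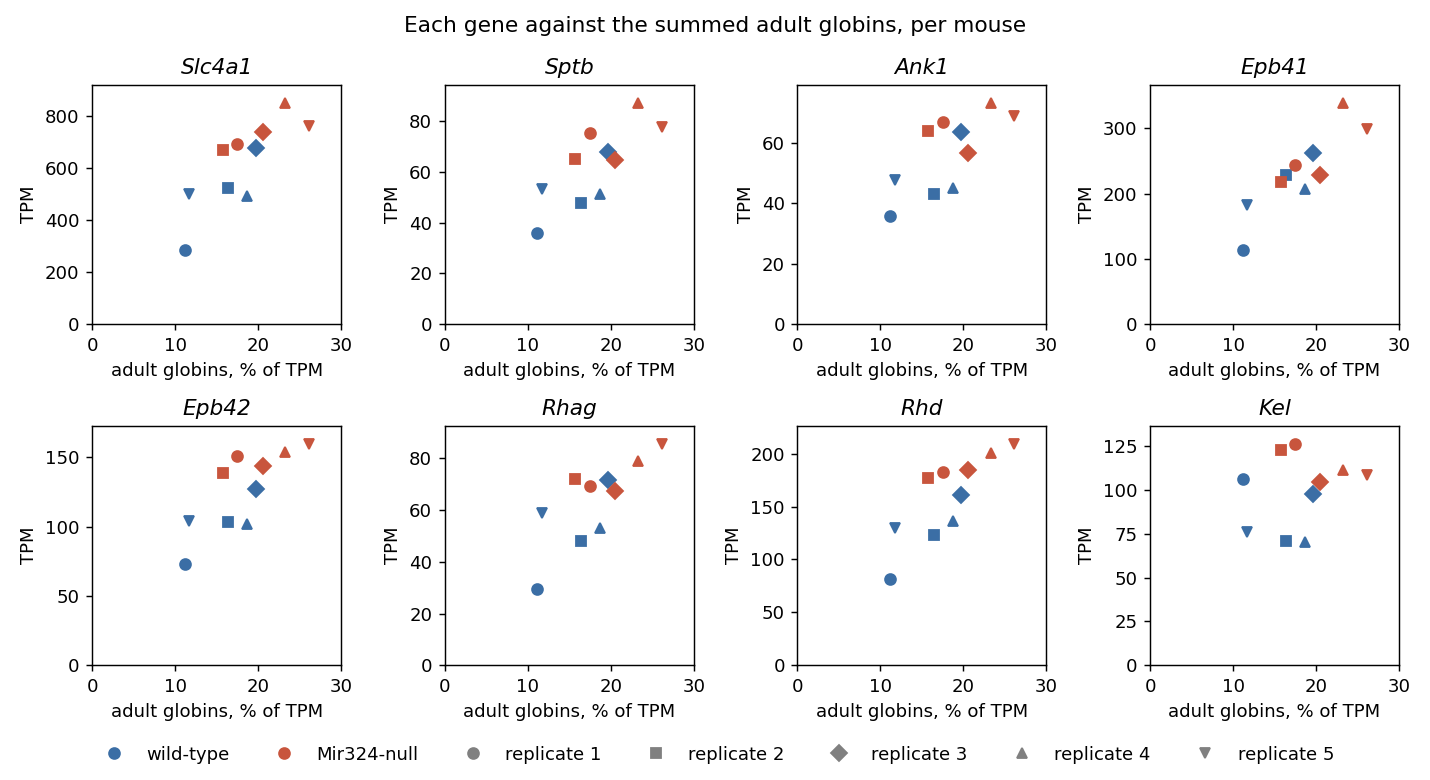
TPM of each of the 8 genes (vertical axes) against the share of TPM held by the 4 adult globins (horizontal axes, in percent), 1 point per mouse, wild-type in blue and Mir324-null in red, with marker shape for the replicate number. For 7 genes the points climb from wild-type mouse 1 at the lower left, while for Kel that mouse lies among the upper points.

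The genes also went with each other. In the 21 pairs that leave Kel out, r lay between 0.857 (Ank1 and Epb41) and 0.991 (Epb42 and Rhd), and all 21 had an adjusted permutation p under 0.05 over 28 pairs. Within genotype, after centring, r of these pairs still lay between 0.813 and 0.978. The 7 pairs with Kel had r between 0.197 and 0.617, and 0 of them passed for r, while 1, Ank1 and Kel, passed for Spearman's rho (0.697, adjusted permutation p = 0.0392). After centring, r of the pairs with Kel lay between -0.436 and 0.0465. Without the 2 libraries farthest from the median of the first gene of a pair, r was 0.660 to 0.992 for the pairs that leave Kel out and 0.498 to 0.902 for those with it. All values of a mouse share its library and its fixed total.

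The genes most like the mean of the 8 across the 10 mice, among 10325 other genes that averaged 5 TPM or more, were Hemgn (r = 0.991), Abcb10 (0.989), Btnl10 (0.988), Cldn13 (0.988) and Slc16a10 (0.987). Hemgn encodes a nuclear protein of blood progenitors and Abcb10 a mitochondrial transporter of erythroid cells. Hemgn had 144.4 ± 36.8 TPM across the wild-type group and 216.9 ± 22.8 TPM in the null group (SD, n = 5). Within the list of red cell membrane components, Gypc had r = 0.99 and Add2 r = 0.98 with that mean, while Slc2a1 had -0.88 and Tpm1 and Piezo1 -0.67. These values are a description over 10 libraries.

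Which transcripts carried the levels differed from gene to gene. A single coding transcript held most of the TPM in Slc4a1 (Slc4a1-201, 91.6%), Sptb (Sptb-202, 93.0%), Rhag (Rhag-201, 98.0%) and Rhd (Rhd-201, 97.3%). The remaining genes were split. In Ank1 the full-length transcripts Ank1-213 (6566 bases, 35.9%) and Ank1-207 (8201 bases, 31.8%) shared the gene with the short Ank1-201 (1030 bases in 4 exons, 17.3%). In Epb41 the leading transcript, Epb41-215 (31.8%), is annotated as noncoding, and coding transcripts held 43.7% to 62.3% of the gene.

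Epb42 and Kel were likewise split between coding and noncoding transcripts. In Epb42, 5 transcripts held at least 10% each and coding ones together 18.3% to 30.4% of the TPM, with the main coding transcript, Epb42-202 (4115 bases, 13 exons), at 4.59 TPM in wild-type mouse 1 and 19.4 to 30.4 TPM in the other 9 mice. Kel-201, the full coding transcript of Kel (2530 bases, 19 exons), held 42.3% of the gene, and Kel-202, a noncoding fragment of 422 bases, 35.8%. TPM is corrected for length, so a read counts for more in a short transcript, and the division of reads between overlapping transcripts is an estimate.

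In wild-type mouse 1 much of the level of Kel was assigned to these short transcripts. Kel-201 alone had 30.1, 32.2, 42.8, 30.4 and 33.8 TPM across the wild-type group and 49.5, 52.4, 50.6, 48.3 and 47.8 TPM across the null group. On this transcript wild-type mouse 1 was the lowest of the 10, as for the other 7 genes, but only just below wild-type mouse 4. The genotypes did not overlap. Among whole genes tested, 0.881% did not overlap and were higher in null mice, and no such share was computed for single transcripts. Kel-202 in the same mouse had 45.0 TPM, against 25.9 to 33.7 TPM in the other wild-type mice, and Kel-205, of 322 bases, had 8.39 TPM, against 0.000145 TPM or less in the other wild-type mice. With Kel-201 in place of the whole gene the difference was 0.55, with a limma p of 0.000174 and an adjusted p of 0.280. The leading transcript of each of the 8 genes was also put in place of the whole gene, as were their coding transcripts only (an alternative added once the values were known). All other genes tested kept their sums over transcripts. In both cases all 8 genes were higher at an unadjusted p under 0.05, and 0 had an adjusted p under 0.05.

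None of the 8 shares of the leading transcript passed adjustment in the comparison of genotypes. The smallest p belonged to Sptb-202, at 92.3% ± 0.897 of the gene in wild-type and 93.6% ± 0.501 in null mice (SD, n = 5, exact permutation p = 0.0238, adjusted 0.190 over 8 shares). The other 7 shares had an exact permutation p of 0.143 or more. Wild-type mouse 1 had the lowest share of the leading transcript in 4 genes, Sptb, Ank1, Epb41 and Kel, with 19.4% for Ank1-213, against 33.3% to 42.8% in the other 9 mice, and 28.4% for Kel-201, against 39.2% to 48.5%. In the other 4 genes it had the highest share, alone for Slc4a1 (99.3%, against 81.9% to 96.1%) and Epb42 (22.5%, against 14.5% to 21.96%) and level with other mice at 100% for Rhag and Rhd.

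**Figure D4:**
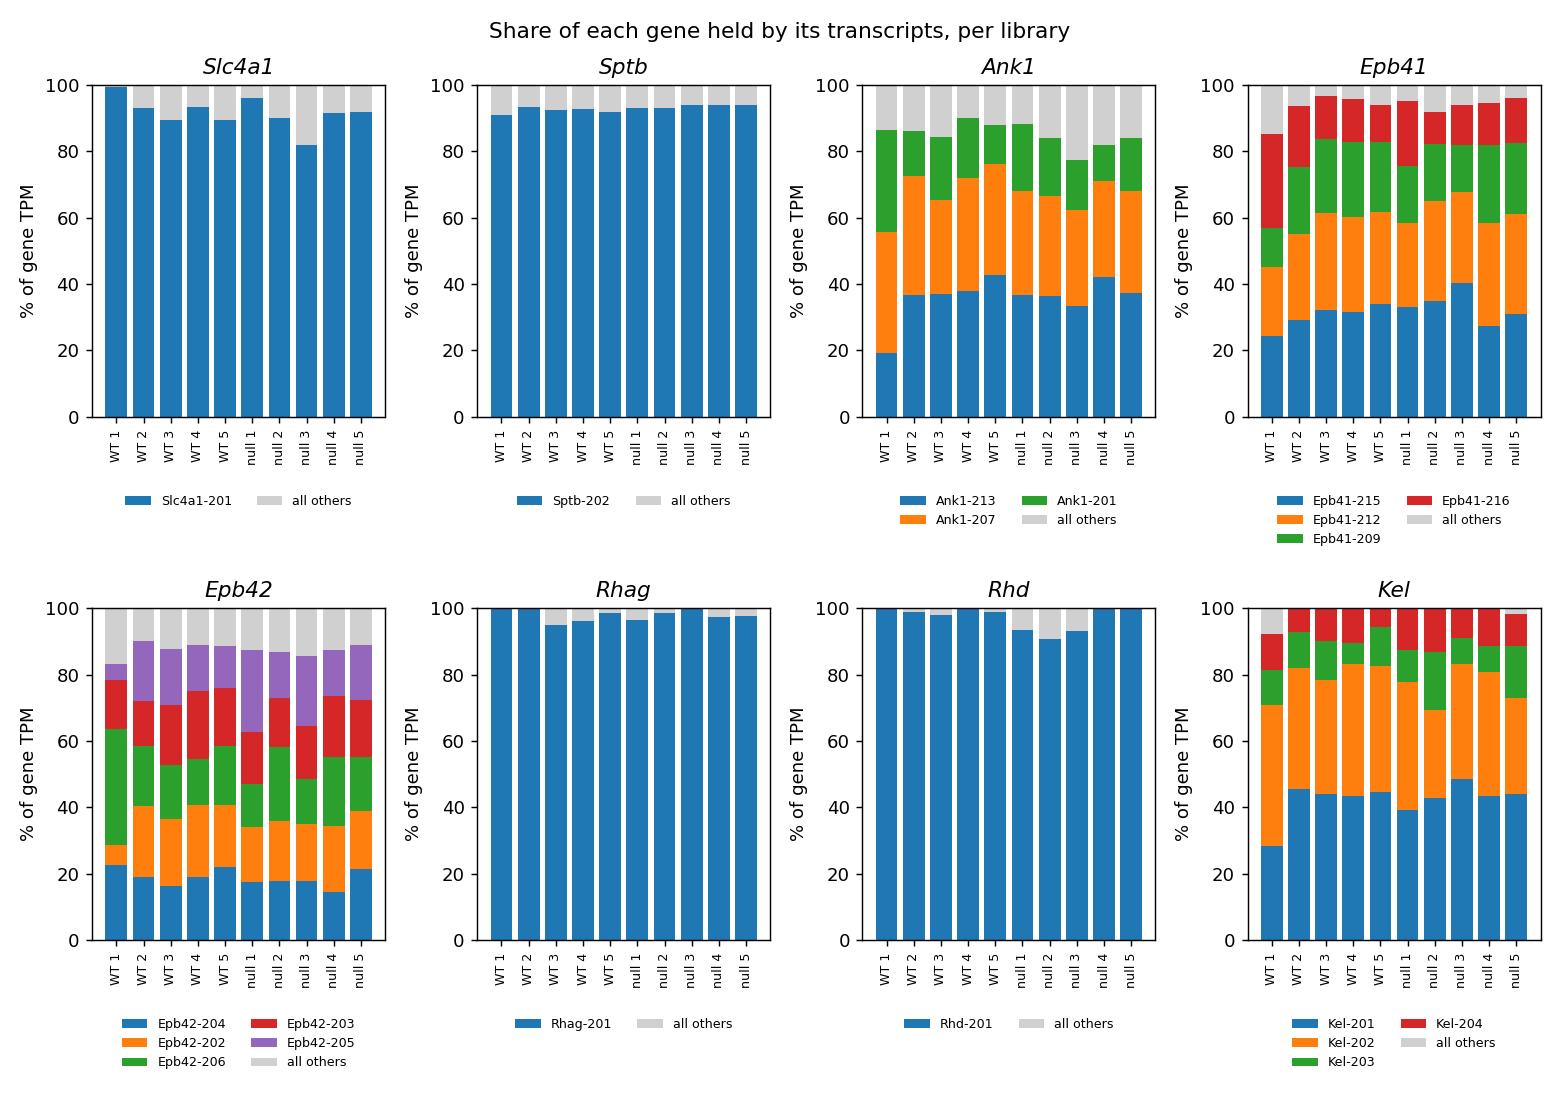
Share of each gene's TPM (vertical axes, in percent) held by its transcripts in each of 10 libraries (bars; WT, wild-type; null, Mir324-null), with transcripts that average at least 10% in color and all others in grey. Slc4a1, Sptb, Rhag and Rhd are held mostly by 1 transcript, and wild-type mouse 1 departs from the other libraries in Ank1, Epb41, Epb42 and Kel.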

How the data were processed

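Libraries were made from total RNA of 10 mice (5 per genotype, individual animals per the design text), so the p-values measure the spread between these mice. The authors deposited a table of TPM values for 116912 mouse Ensembl transcripts, from kallisto per the submitters' processing notes, which also name DESeq2 and the human build GRCh38; version, index and build used for this table are not given in the sources used here. TPM carry no counts, so depth is unknown, the number of mice limits the precision, and no count model was used. Each column sums to 1000000 TPM, so abundant transcripts lower all others. Transcripts were matched without version to GENCODE M21 (GRCm38): 115440 matched and 1472, with 0.275% to 0.356% of a library's TPM, did not. TPM were summed per gene, genes that averaged 1 TPM or more were tested as log2(TPM + 1), which understates changes of low genes, with limma 3.58.1 in R 4.3.3 (trend on mean expression, two-sided, no covariate, Benjamini-Hochberg over 13841 genes, threshold 0.05). Ratios and transcript shares were compared with two-sided exact permutation tests over all 252 splits of the mice into 5 and 5, whose smallest p is 0.00794. Correlations used 100000 permutations. Steps ran in Python 3.11.15 (numpy 2.4.6, pandas 2.3.3, scipy 1.17.1, matplotlib 3.10.9) and were tested on simulated data.

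The 8 genes, the lists and the tests were chosen with earlier results of these data known. Named genes were the 8, then Ermap and the 3 largest and 3 smallest differences among red cell membrane components, the most abundant relative of each gene, and the 5 genes most like the mean of the 8. Of the red cell membrane components, 2 that the rule also covers are counted but not reported here by name. Genes named beyond this rule (Aqp1, Kcnn4, Gypc, Add2, Gata1, Tal1) were named after their values were seen. Seed matches were searched in the longest 3′ untranslated region of protein-coding transcripts. Alternatives were other scalings, pseudocounts, filters and fits, single transcripts, and leaving out each mouse.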

Additional observations from a re-analysis of the deposited data

How the results depend on the processing

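The 8 genotype differences stayed above 0 in all 168 combinations of gene and setting, with adjusted p between 0.0869 and 0.689, and 0 of the 8 genes had an adjusted p under 0.05 in any of them. At an unadjusted p under 0.05, 7 or 8 were higher under every setting. Over all genes, 0 had an adjusted p under 0.05, and 0 to 1 when single mice were left out (1 with wild-type replicate 3, wild-type replicate 4 or Mir324-null replicate 1 removed). The count at an unadjusted p under 0.05 was 1603, of which 63.1% were lower in null mice; that share was 50.3% with median-of-ratios scaling, 51.2% with quantile normalization and 32.4% with globins left out of the total. The 7 genes correlated with the globins became 4 with values centred within genotype and 0 without the 2 farthest libraries, and Kel then had r = -0.39 when centred. Leaving out single mice turned the sign of the globin ratio of Epb41 (-0.052 to 0.104) and Kel (-0.096 to 0.239), and of the leading transcript share of Ank1 (-1.38 to 4.48 percentage points), Rhag (-0.668 to 0.599) and Kel (-0.709 to 3.55), none of which passed a test; for Rhag the log2 ratio to the rest of the gene was -0.25. The cause of these changes was not tested. Deviations of same-numbered mice correlated at -0.144 to 0.056, and 0 of 5 wild-type mice correlated best with their own number, so the numbers were not taken to pair mice. With the replicate number as a block, 1168 genes and all 8 red cell genes had an unadjusted p under 0.05, and 0 an adjusted one. With 5 mice per genotype and TPM only, small differences in transcript shares are limited by the spread between mice and by unknown depth.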

Other observations

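In the wild-type group, mouse 3 was the highest of the 5 for 7 of the 8 red cell membrane genes, and its sum over the 8 genes, 1529 TPM, lay just below that of the lowest null mouse, 1531 TPM. Wild-type mice 2, 4 and 5 summed to 1187, 1158 and 1153 TPM, and wild-type mouse 1 to 760.8 TPM. Among the null mice, mouse 4 had the highest sum, 1899 TPM. No sample of either genotype stood far enough from its group to pass Dixon's test at the 95% level in the 16 groups of 5 examined. The ratio of Kel to Xk, the partner to which the Kell protein is bound in the red cell membrane, was 15.8 in wild-type mouse 1 and 7.49 to 11.5 in the other 9 mice.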
